A study of Mus musculus with 4 samples.

Results

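Promoters that carry the names of 2 genes were examined for Ring1B occupancy in mouse embryonic fibroblasts. A promoter counted as shared when its name in the array annotation joined a pair of gene names by a single hyphen (each of at least 3 letters or digits, and not of the histone or keratin series). This held for 1485 of the 18354 named promoters, and 16746 promoters with no hyphen in the name served for comparison. The fibroblasts came from C57BL/6 embryos at embryonic day 12.5 and were used at passage 2. One culture type was wild type and the other carried the L307R change on both alleles (Phc2 L307R/L307R). Phc2 is a Polycomb subunit whose SAM domain polymerizes, and the comparison asks how Ring1B occupancy differs in cells with the altered Phc2. Immunoprecipitated DNA, labelled with Cy5, was hybridised against input DNA, labelled with Cy3, on 4 promoter arrays: 1 per genotype on each of 2 designs with different probes. Design 1 held 768 of the shared promoters and design 2 held 717. With a single array per genotype for every promoter there is no replicate, and no p-value is given. Scan day and genotype cannot be told apart, because the 2 genotypes were scanned on separate days. The Phc2 change and the cell type cannot be checked on DNA arrays of this kind.

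Ring1B is the ubiquitin ligase of Polycomb repressive complex 1 (PRC1), which marks histone H2A and keeps developmental genes silent in cells that do not use them. PRC1 is known to gather at CpG islands, stretches rich in CG dinucleotides that lie over many gene starts. A shared promoter of the head-to-head kind can drive a gene on either strand from one interval between both starts. Many housekeeping genes of metabolism, DNA repair and translation are known to be arranged in this way.

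The arrays placed the shared names between the genes of a pair. In 1416 of the 1418 pairs in which both partners also had probes of their own, the shared probes lay between those of the left and those of the right gene. Of 1002 pairs whose partners both had an entry in the RefSeq promoter table (GRCm38.p6), 1000 were head to head and 2 tail to tail; 35 of the head-to-head pairs had starts that overlapped. The interval, taken between the nearest probes of both partners where those lay within 500 bp of the shared ones (1142 pairs), had a median of 1694 bp (quartiles 481 and 5985 bp). It differed from the RefSeq start-to-start distance by at most 500 bp in 576 of 749 pairs (76.9%). Of the 1000 head-to-head pairs, 458 (45.8%) had RefSeq starts less than 1000 bp apart. Shared therefore refers to the name, and whether one promoter drives both genes of a pair was not tested. Promoters are named left gene first, in the order of the chromosome.

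Reference sequences of pairs named in the results are given here first, and some of them show how unlike both ends of one interval can be. Each is the 250 bases before a start, or, for Mmachc-0610037D15Rik and Rpl9-Lias, all bases between both starts on the plus strand; all are from RefSeq, build GRCm38.p6, 5′ to 3′, with CG dinucleotides in capitals. Over all 32851 promoters of that table, the median number of CG in these 250 bases was 6 (quartiles 2 and 16), and 92.1% held at least 1. The probes behind the Ring1B levels given below need not lie within these bases. For Trp73-Wdr8 they centred 1028 bp from the nearer start, and for Zic1-Zic4 1330 bp. The first pair is Shox2-Rsrc1, which had one of the highest Ring1B levels. Shox2, a homeobox factor of limb and heart development (chr3:66981772-66982021, minus strand, 11 CG), faces Rsrc1, a factor linked to RNA splicing (chr3:66985412-66985661, plus strand, 13 CG).
Shox2: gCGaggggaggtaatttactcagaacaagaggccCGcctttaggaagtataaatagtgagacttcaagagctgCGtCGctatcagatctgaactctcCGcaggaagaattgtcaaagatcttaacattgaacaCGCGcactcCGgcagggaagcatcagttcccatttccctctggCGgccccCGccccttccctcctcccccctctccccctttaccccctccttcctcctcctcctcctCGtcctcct
Rsrc1: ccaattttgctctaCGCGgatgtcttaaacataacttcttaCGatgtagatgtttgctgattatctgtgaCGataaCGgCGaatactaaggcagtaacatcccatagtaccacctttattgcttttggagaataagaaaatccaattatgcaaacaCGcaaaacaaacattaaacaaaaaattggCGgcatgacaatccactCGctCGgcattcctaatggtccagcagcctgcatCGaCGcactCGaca
In Trp73-Wdr8, Trp73, which encodes the p53 relative p73 (chr4:154139876-154140125, minus strand), held 31 CG and Wdr8, now named Wrap73 (chr4:154142122-154142371, plus strand), held 14.
Trp73: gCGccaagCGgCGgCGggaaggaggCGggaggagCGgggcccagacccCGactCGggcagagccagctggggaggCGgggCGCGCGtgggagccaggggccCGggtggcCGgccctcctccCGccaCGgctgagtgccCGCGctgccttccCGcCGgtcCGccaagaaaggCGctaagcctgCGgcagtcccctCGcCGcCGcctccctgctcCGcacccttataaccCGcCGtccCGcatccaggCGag
Wdr8: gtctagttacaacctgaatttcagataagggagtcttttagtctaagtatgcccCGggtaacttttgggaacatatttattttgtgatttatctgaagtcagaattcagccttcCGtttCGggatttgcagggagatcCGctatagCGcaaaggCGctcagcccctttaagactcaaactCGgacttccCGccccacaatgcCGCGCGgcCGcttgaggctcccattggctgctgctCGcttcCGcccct
In Zic1-Zic4, both partners are zinc finger factors of the developing nervous system. Zic1 (chr9:91365769-91366018, minus strand) held 27 CG and Zic4 (chr9:91368722-91368971, plus strand) held 4.
Zic1: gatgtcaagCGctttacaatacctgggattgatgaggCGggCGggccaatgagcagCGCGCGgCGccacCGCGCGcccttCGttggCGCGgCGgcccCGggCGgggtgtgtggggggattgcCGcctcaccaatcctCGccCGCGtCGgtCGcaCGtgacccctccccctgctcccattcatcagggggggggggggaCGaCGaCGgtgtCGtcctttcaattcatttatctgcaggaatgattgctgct
Zic4: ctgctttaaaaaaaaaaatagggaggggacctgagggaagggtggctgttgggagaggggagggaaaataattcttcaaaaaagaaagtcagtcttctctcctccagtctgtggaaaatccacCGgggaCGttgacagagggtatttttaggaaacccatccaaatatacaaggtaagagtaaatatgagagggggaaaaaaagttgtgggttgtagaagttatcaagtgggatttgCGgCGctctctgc
In Gamt-Dazap1, which had the largest fall in Phc2 L307R, Gamt, a methyltransferase of creatine synthesis (chr10:80261013-80261262, minus strand), held 12 CG and Dazap1, an RNA-binding protein (chr10:80264764-80265013, plus strand), held 35.
Gamt: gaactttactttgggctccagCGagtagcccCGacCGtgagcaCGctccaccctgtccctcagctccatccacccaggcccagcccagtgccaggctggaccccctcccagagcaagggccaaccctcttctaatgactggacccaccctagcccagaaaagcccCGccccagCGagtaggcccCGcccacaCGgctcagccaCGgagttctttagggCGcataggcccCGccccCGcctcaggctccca
Dazap1: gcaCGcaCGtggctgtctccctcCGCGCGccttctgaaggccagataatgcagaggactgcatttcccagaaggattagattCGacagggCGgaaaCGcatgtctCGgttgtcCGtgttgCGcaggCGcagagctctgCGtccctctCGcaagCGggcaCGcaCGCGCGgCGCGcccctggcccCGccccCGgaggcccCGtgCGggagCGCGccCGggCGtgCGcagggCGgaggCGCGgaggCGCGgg
P2ry4-Arr3, the pair with the largest rise, was poor in CG at both ends. P2ry4, a nucleotide receptor (chrX:100594870-100595119, minus strand), held 3 and Arr3, the arrestin of cone photoreceptors (chrX:100605247-100605496, plus strand), held 0.
P2ry4: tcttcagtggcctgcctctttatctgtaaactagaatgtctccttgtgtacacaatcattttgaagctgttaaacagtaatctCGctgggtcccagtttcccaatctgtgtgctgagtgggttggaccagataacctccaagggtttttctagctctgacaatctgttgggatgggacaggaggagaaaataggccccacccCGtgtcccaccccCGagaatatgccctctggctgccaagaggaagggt
Arr3: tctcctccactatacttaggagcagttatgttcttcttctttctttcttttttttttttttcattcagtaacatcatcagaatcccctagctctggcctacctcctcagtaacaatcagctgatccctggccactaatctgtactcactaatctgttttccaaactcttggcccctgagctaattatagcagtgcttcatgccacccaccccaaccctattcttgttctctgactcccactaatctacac
The last sequences are whole intervals. Mmachc, which handles vitamin B12, and 0610037D15Rik (now Ccdc163) are separated by 209 bases with 12 CG (chr4:116708386-116708594). Rpl9, a ribosomal protein gene, and Lias, which makes lipoic acid, are separated by 65 bases with 9 CG (chr5:65391432-65391496).
Mmachc-0610037D15Rik: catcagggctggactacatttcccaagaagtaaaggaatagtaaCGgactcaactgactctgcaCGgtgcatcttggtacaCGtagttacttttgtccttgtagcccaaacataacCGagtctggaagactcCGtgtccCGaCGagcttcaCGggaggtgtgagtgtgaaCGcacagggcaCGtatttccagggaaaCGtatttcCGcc
Rpl9-Lias: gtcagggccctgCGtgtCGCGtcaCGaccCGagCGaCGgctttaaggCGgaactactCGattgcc

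Ring1B levels are log2 ratios of immunoprecipitate over input, centred on the median of each array, so a level of 1 is a doubling over a typical probe. Each promoter was represented by its highest window, which is the run of 3 adjacent probes spanning at most 2000 bp whose mean, taken over wild type and Phc2 L307R together, was greatest. Bound promoters are those whose window reached 1. Of the shared promoters, 1021 held such a window, with a median of 13 probes against 27 for promoters with no hyphen. The other 464 had too few probes (288 had 1 probe and 161 had 2) or probes too far apart (15), and are described by the mean of their probes.

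Shared promoters carried intermediate Ring1B levels, with a small number of very high ones. The wild-type window level had a median of 0.83 (quartiles 0.22 and 1.36), and the same windows had a median of 0.69 in Phc2 L307R (quartiles 0.23 and 1.19). In wild type, 427 of 1021 were bound (41.8%), against 45.8% of 16525 promoters with no hyphen and 45.5% of all 17649. In Phc2 L307R, 348 were bound (34.1%), against 39.7% with no hyphen and 39.3% of all. As a background, the lowest window was at or below -1 in 12 shared promoters in wild type (all promoters, 2.19%) and in 24 in Phc2 L307R (all promoters, 7.64%). The 464 without a window had a median probe mean of 0.86 (wild type) and 0.66 (Phc2 L307R). On the same measure, the mean over all probes, those with a window had 0.14 and 0.10. In wild type, 188 of the 464 reached 1 (40.5%), against 30.1% of all 705 names without a window and 5.88% of the 221 of these with no hyphen. Among the highest of them were 1200011I18Rik-Nufip1 (3.01 in wild type, 2.69 in Phc2 L307R, 1 probe) and Tmem176b-Tmem176a (2.87 and 2.56, 2 probes). Of the 464, 18 had a probe mean lower by at least 1 in Phc2 L307R (3.88%; all names without a window, 2.55%) and 12 had one higher by at least 1 (2.59%; all, 2.41%). The 705 names include these 464, and all 18 of the lower ones are shared. Of the 221 with no hyphen, 0 were lower and 2 higher (0.905%), but few of them reached 1 in wild type.

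The difference from promoters with no hyphen, which had more probes, depended on how the level was taken. By the highest window, the median of shared promoters was 0.07 lower in wild type (0.83 against 0.91). When all probes were averaged instead, it was 0.07 higher (0.14 against 0.07). With the promoters with no hyphen weighted to the same number of windows, their median was 0.53 and 30.7% were bound in wild type, both under the values of the shared promoters. On design 1, 38.2% of the shared promoters and 46.1% of those with no hyphen were bound in wild type; on design 2 the shares were 45.7% and 45.5%. The count of 427 was 158 with normexp background correction and 235 when probes not well above background were left out.

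The contrast lay in promoters with few probes. With 3 to 5 probes, 176 shared promoters had a median wild-type window of 0.98 and 201 promoters with no hyphen one of 0.01. With 6 to 10 probes the medians were 0.70 and 0.35, with 11 to 20 probes 0.78 and 0.75, and with 21 to 30 probes 0.90 and 0.92. With 31 or more probes the order was turned, at 0.87 and 1.13. In Phc2 L307R the medians at 3 to 5 probes were 0.72 and 0.09.

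**Figure D1:**
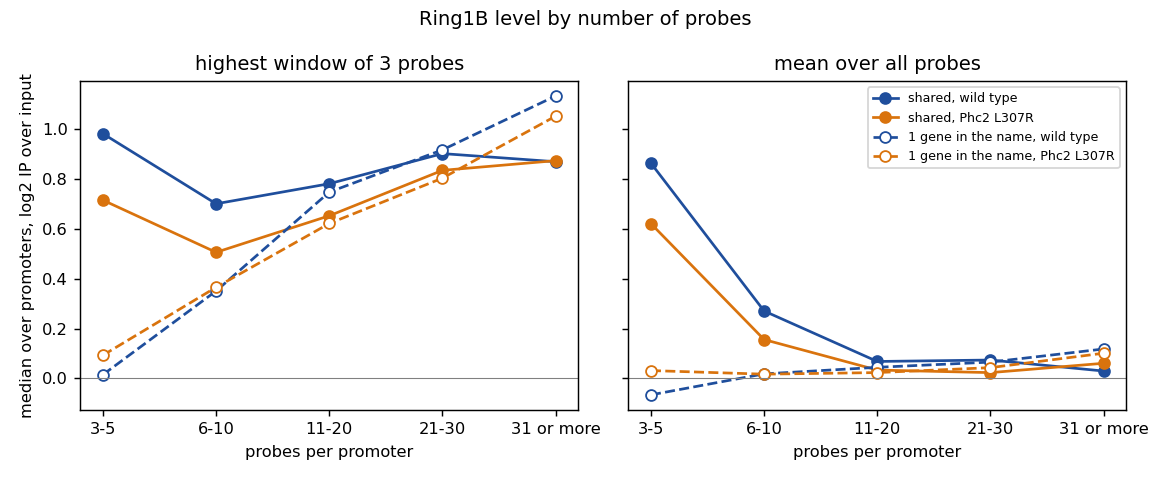
Median Ring1B level (log2 IP over input) of shared promoters (filled, solid) and promoters with no hyphen in the name (open, dashed) by number of probes, in wild type (blue) and Phc2 L307R (orange), for the highest window (left) and the mean over all probes (right). At 3 to 5 probes shared promoters stood at 0.98 in wild type against 0.01; at 31 or more they stood at 0.87 against 1.13.

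Short intervals, which hold few probes, had the highest level when the whole interval was averaged. In the 499 shared promoters with an interval under 1000 bp (median 1 probe), the mean over all probes had a median of 0.97 in wild type. In Phc2 L307R it was 0.81, and 239 promoters (47.9%) reached 1 in wild type. In the 169 of 1000 to 3000 bp the wild-type median was 0.73, with 36.1% at 1 or more. In the 189 of 3000 to 6000 bp it was 0.25, with 6.35%, and in the 285 of 6000 bp or more it was 0.06, with 3.16%. The level of the highest window fell less, from 1.30 under 1000 bp (94 promoters with a window) to 0.89 at 6000 bp or more. That window is picked from more windows in longer intervals (median of 23 probes at 6000 bp or more). The levels of the highest window are therefore not alike in kind across lengths.

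Around each start, the probe level was raised and fell off to both sides. In every class of interval the highest median lay 250 to 500 bp upstream of the start, at 1.33 in wild type in intervals under 1000 bp (124 promoters, where this is the middle of the interval), 0.82 at 1000 to 4000 bp and 0.46 at 4000 bp or more. In intervals under 1000 bp the median probe level in wild type was 0.96 within 250 bp upstream of the start and 1.01 within 250 bp inside the gene. It was 0.36 at 750 to 1000 bp inside the gene. In intervals of 4000 bp or more it was 0.41 within 250 bp upstream, 0.12 at 750 to 1000 bp upstream and -0.15 at 1750 to 2000 bp upstream. Phc2 L307R had the same form at lower values, with 0.80 within 250 bp upstream in the short intervals and 0.26 in the long ones.

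**Figure D2:**
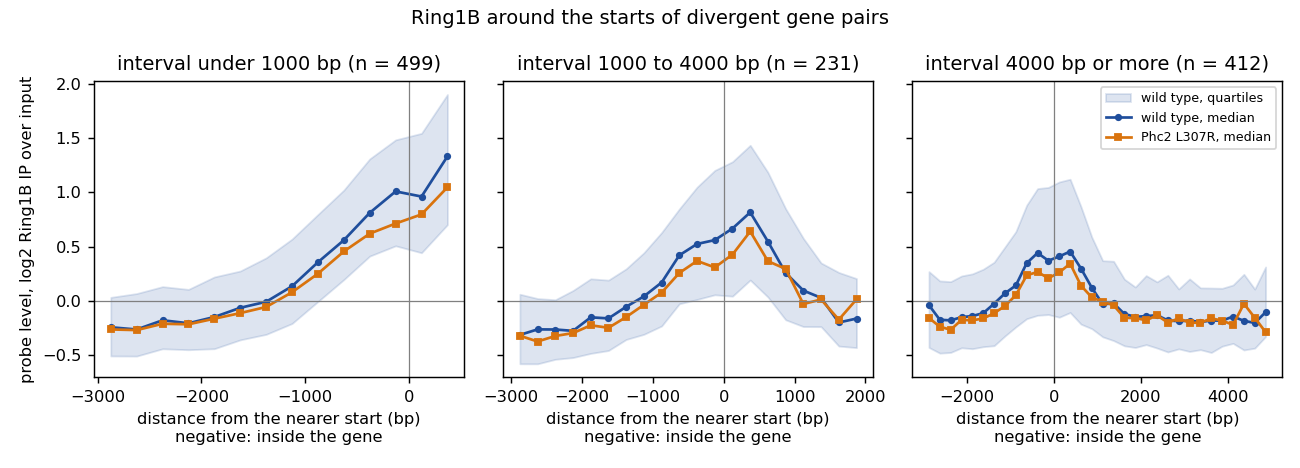
Median probe level (log2 IP over input) in bins of 250 bp around the nearer start, for intervals under 1000 bp (499 pairs), of 1000 to 4000 bp (231) and of 4000 bp or more (412); shading gives the wild-type quartiles. The highest wild-type bin lies 250 to 500 bp upstream in all 3 classes, at 1.33, 0.82 and 0.46; in the bin next to the start the level was 0.96, 0.67 and 0.41.

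In long intervals, the highest windows lay mostly near the ends as the probes place them, though most intervals reached 1 at neither end. Of 410 highest windows in intervals of 4000 bp or more, 328 (80.0%) lay within 1000 bp of a start, against 31.8% of all 7444 windows there. Among the 208 bound in either genotype the share was 88.5%, and among the 202 not bound it was 71.3%. For 292 of these intervals both ends, the 1000 bp next to each start, held at least 3 probes. In wild type, 14 had a mean of at least 1 at both ends, 88 at 1 end and 190 at neither. Levels at the left and right ends were weakly related over the 292 (Spearman correlation 0.17 in wild type). The median was 0.71 at the higher end, 0.01 at the lower end and -0.15 in the middle, more than 1500 bp from either start (271 intervals with at least 3 probes there). The ends differed by 1 or more in 81 intervals, and in all 81 the same end was the higher one in Phc2 L307R; over all 292 this held for 251. Higher and lower were chosen from the wild-type values, so the gap between those medians is a description. An end is where the probes named for the partner begin, and it need not be a start in RefSeq: of the 177 head-to-head pairs among the 292, the interval was within 500 bp of the RefSeq distance in 110, and 23 others had RefSeq starts less than 1000 bp apart. In the 110, 4 were at 1 or more at both ends, 36 at 1 end and 70 at neither, with medians of 0.68 at the higher and 0.07 at the lower end.

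Pairs with 1 or more at both ends are shown by 4 examples. Evx2-Hoxd13, a pair of homeobox genes at one end of the HoxD cluster, had 4.33 at the Evx2 end, 3.25 at the Hoxd13 end and 2.78 in the middle. Zic5-Zic2 had 2.57, 1.79 and 3.36 in that order, so its level was highest between the ends. Rpl3-Syngr1, a ribosomal protein gene beside a synaptic vesicle gene, had 1.99 and 1.42 at its ends but 0.02 in the middle. Gmfb-Cgrrf1 had 1.26 and 1.06 at its ends and -0.08 in the middle.

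**Figure D3:**
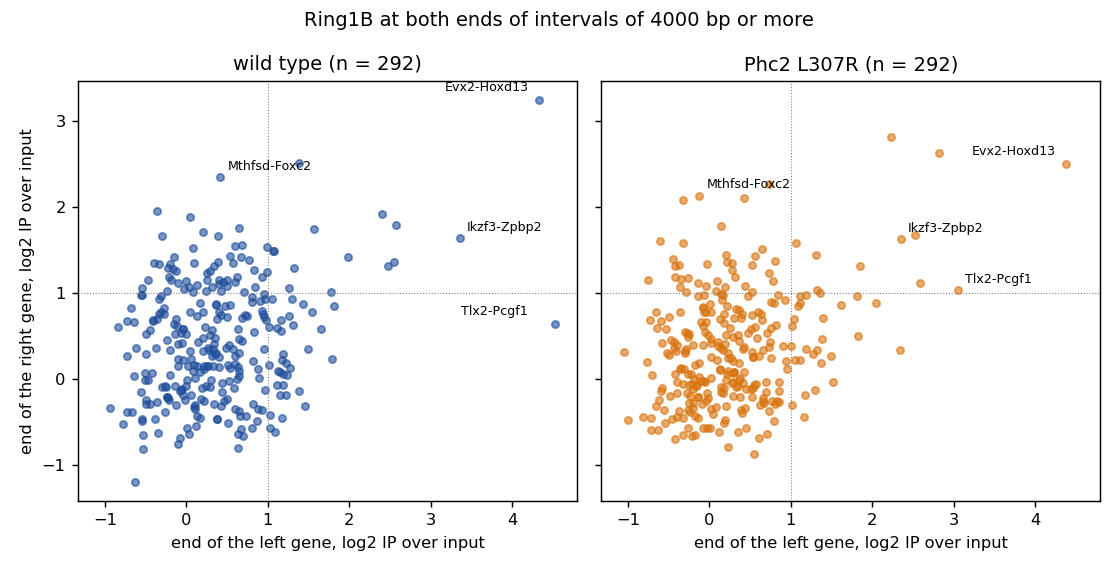
Mean Ring1B level (log2 IP over input) in the 1000 bp next to the start of the left gene (x axis) and of the right gene (y axis) in wild type (left) and Phc2 L307R (right); each point is 1 of 292 intervals of 4000 bp or more and dotted lines mark 1. In wild type 88 points lie past 1 on a single axis and 14 on both.

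The higher end was more often the one rich in CG. A RefSeq promoter of 300 bases was called CpG-rich at a GC content of at least 50% and a ratio of observed to expected CG of at least 0.6. This held for 1339 of the 2000 partner promoters of head-to-head pairs (67.0%) and for 33.5% of all 32851 promoters in the table. Of 53 head-to-head intervals whose ends differed by 1 or more, 27 were CpG-rich at the higher end alone, 3 at the lower end alone, 15 at both and 8 at neither. In the 31 of them whose interval was within 500 bp of the RefSeq distance these counts were 22, 1, 5 and 3, and in the other 22 they were 5, 2, 10 and 5. Among the 115 with no end at 1 the split went the same way, with 37 and 13. The interval of Zic1-Zic4, 3204 bp, is too short for this measure; on another, the highest window of the probes inside each gene, Zic1 (27 CG in the sequence above) had 3.76 in wild type and Zic4 (4 CG) 0.89. Evx2-Hoxd13 was the pair of the 31 that was CpG-rich at the lower end alone, with 4.33 at Evx2 and 3.25 at Hoxd13. Evx2 missed the GC cut-off, though its ratio of observed to expected CG was 1.125. Gamt-Dazap1 also ran the other way, since its window lay 382 bp from Gamt, the end with fewer CG.

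Across pairs, the window level followed the CG content as well. Where both partners were CpG-rich (257 pairs with a window) the wild-type median was 1.06 and 52.1% were bound. Where 1 partner was (266 pairs) it was 0.97 and 48.5%, and where neither was (147 pairs) it was 0.34 and 20.4%. Promoters with no hyphen had 1.19 and 62.8% bound where CpG-rich, and 0.36 and 25.4% where not.

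The highest levels belonged to developmental transcription factors that share an interval with another gene. A level of 3 or more in wild type was reached by 9 shared promoters (all promoters, 1.58%), and one of 3 or more in either genotype by 11 (all promoters, 1.93%). Of these 11, 8 have a homeobox, forkhead, T-box or Zic factor as a partner. The other 3 were Trp73-Wdr8, Ikzf3-Zpbp2 and 8030451K01Rik-2810046L04Rik. The list of such factors covered 24 shared promoters, 22 with a window, of which 15 were bound in wild type (68.2%; all promoters, 45.5%; shared promoters, 41.8%), with a median of 1.37.

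Tlx2-Pcgf1 was the highest. Tlx2 is a homeobox factor of the enteric nervous system, and Pcgf1 is itself a Polycomb protein, a ring finger partner of Ring1B. The window (chr6:83036260-83036645 in the coordinates of the arrays, 601 bp from the Tlx2 start) had 6.30, 5.28 and 5.10 on its 3 wild-type probes, against 3.82, 4.39 and 4.22 on the same probes in Phc2 L307R. All 3 probes were lower in Phc2 L307R, and the means were 5.56 ± 0.65 (SD over 3 probes) and 4.14 ± 0.29. The end next to Pcgf1 stood at 0.64 and 1.04, and the probes inside each gene had highest windows of 3.50 (Tlx2) and 0.67 (Pcgf1) in wild type.

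Shox2-Rsrc1 followed, at 5.10 ± 0.46 in wild type and 4.61 ± 0.13 in Phc2 L307R (chr3:67070857-67071275 on the arrays). Its mean over all 21 probes was 4.10 in wild type, so the level was high along the interval. The probes inside Rsrc1 had a highest window of 1.89 in wild type. Evx2-Hoxd13 was at 4.39 ± 0.92 and 4.44 ± 0.23 (chr2:74460841-74461274 on the arrays), with the probes in wild type at 4.26, 3.55 and 5.37, so the genotypes differed by less than the spread between probes. Zic5-Zic2 was at 3.84 and 4.26, and Zic1-Zic4 at 3.03 and 3.39. All 3 probes of both windows were higher in Phc2 L307R. With all 56 probes of Zic5-Zic2 averaged, Phc2 L307R was the lower genotype (2.81, wild type 3.08). The same average for Zic1-Zic4 was higher in Phc2 L307R (2.89, wild type 2.43).

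Other members of the group were lower. Tbx1-4930588K23Rik, with the T-box factor of the pharyngeal arches, was at 3.18 and 3.33, with the window 327 bp from Tbx1. Mthfsd-Foxc2, with a forkhead factor of vessel and bone development, was at 2.79 and 3.02; its end next to Foxc2 stood at 2.35 in wild type and the end next to Mthfsd, a folate enzyme, at 0.42. Hoxa2-5730596B20Rik was at 2.65 and 3.23. AA415398-Foxj3 (2.52 and 2.35), Pitx3-Gbf1 (2.21 and 2.05) and Lmx1b-C130021I20Rik (1.51 and 1.51) came next. Sox8-Tmem112 (0.65 in wild type), Six4-Mnat1 (0.39), Foxh1-Ppp1r16a (0.17) and Asb6-Prrx2 (0.11) were not bound.

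Of the 3 other promoters at this level, Trp73-Wdr8 had the least spread, at 3.83 ± 0.15 in wild type and 3.15 ± 0.15 in Phc2 L307R, and all 3 probes were lower in Phc2 L307R (3.69, 3.83 and 3.99 against 3.18, 3.28 and 2.98). Ikzf3-Zpbp2, with the lymphoid factor Aiolos, was at 3.44 and 2.47, with the window 370 bp from Ikzf3. 8030451K01Rik-2810046L04Rik (now Nhlrc3 and Proser1) was at 3.36 and 3.97. These values stand on the scanner files alone. The value tables have wild-type columns that correlated with the scanner ratios at only 0.854 and 0.890. They put 10 of the 11 lower in Phc2 L307R, with a median difference of -1.38. The scanner windows gave 0.15, with 4 lower. Mthfsd-Foxc2 and Hoxa2-5730596B20Rik reached 3 there in Phc2 L307R alone, and Ikzf3-Zpbp2 in wild type alone. The sign of their differences was therefore fixed by how they were chosen. The scanner result also depended on the window. By the scanner mean over all probes, Evx2-Hoxd13 (3.03 and 2.96) and Zic5-Zic2 (3.08 and 2.81) were lower in Phc2 L307R. So were Tbx1-4930588K23Rik (1.31 and 1.20) and Mthfsd-Foxc2 (1.10 and 0.99). Zic1-Zic4, Hoxa2-5730596B20Rik and 8030451K01Rik-2810046L04Rik stayed higher by that mean.

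**Figure D4:**
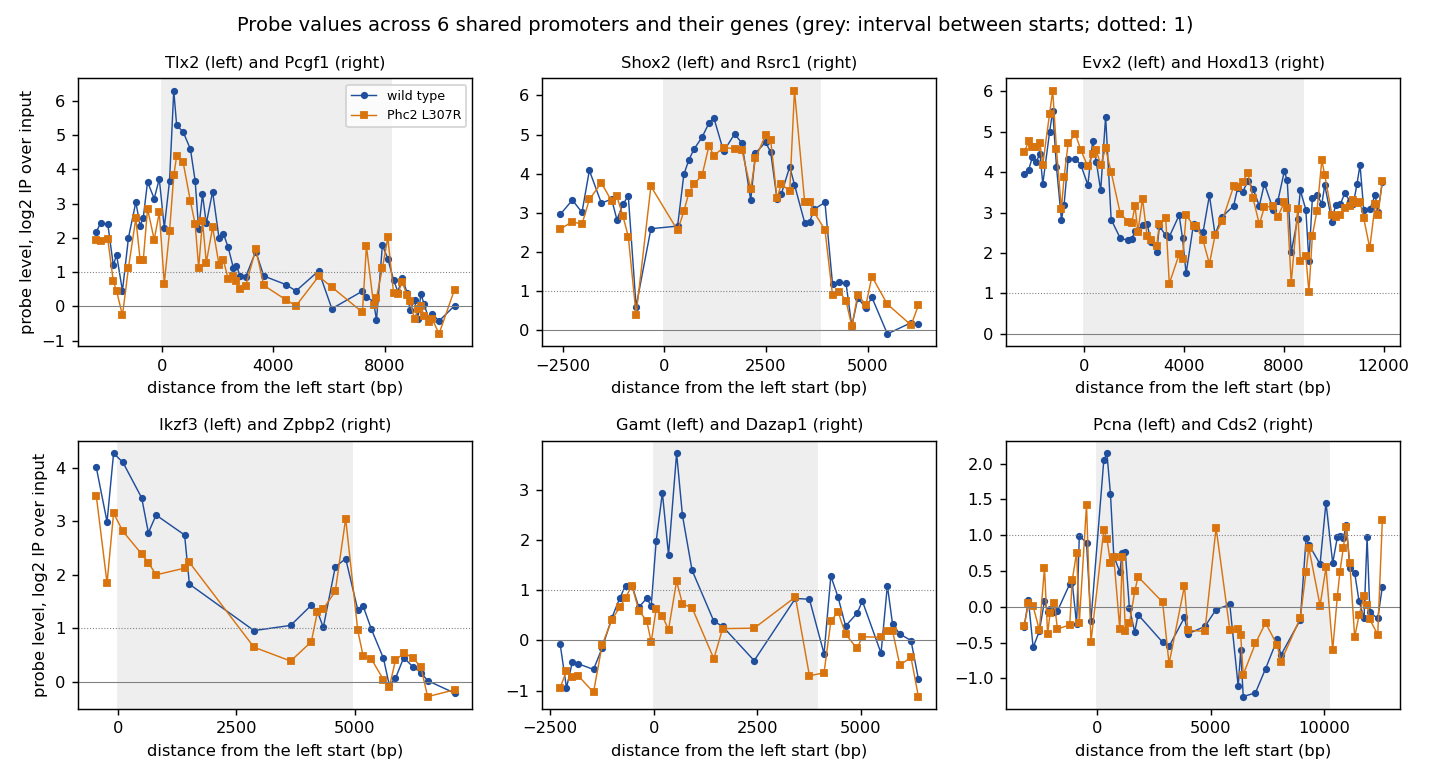
Single probe values (log2 IP over input) in wild type (blue circles) and Phc2 L307R (orange squares) along 6 shared promoters, by distance from the start of the left gene; grey marks the interval between both starts. Tlx2-Pcgf1 and Gamt-Dazap1 peaked near the left start, at 6.30 and 3.73 in wild type, while Evx2-Hoxd13 and Shox2-Rsrc1 were occupied from end to end.

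Between genotypes, shared promoters were on balance slightly lower in Phc2 L307R. Over all 1021 with a window the median difference, Phc2 L307R minus wild type, was -0.09 (all promoters, -0.05), and it was below 0 in 595 (58.3%; all promoters, 54.5%). Bound in either genotype were 479 (all promoters, 51.0%), and their median difference was -0.17 (quartiles -0.47 and 0.14), beside -0.14 with no hyphen and -0.14 over all bound promoters. The difference was below 0 in 314 (65.6%; all bound promoters, 61.9%). Of the 427 bound in wild type, 296 stayed bound (69.3%, against 74.5% with no hyphen), and 52 were bound in Phc2 L307R alone. By the size rule, a difference of at least 1 with all 3 probes on the same side, 19 fell (3.97%; all bound promoters, 3.02%) and 3 rose (0.63%; all bound promoters, 1.64%). The share that fell is near that of all bound promoters, and the share that rose is lower and rests on 3 promoters. The median of the bound ones was -0.33 with normexp background correction and -0.32 with the arrays scaled to the same spread, where that of all bound promoters moved too, to -0.34 and -0.27. With normexp 7 fell and 0 rose, and with windows of 5 probes 3 fell and 1 rose.

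**Figure D5:**
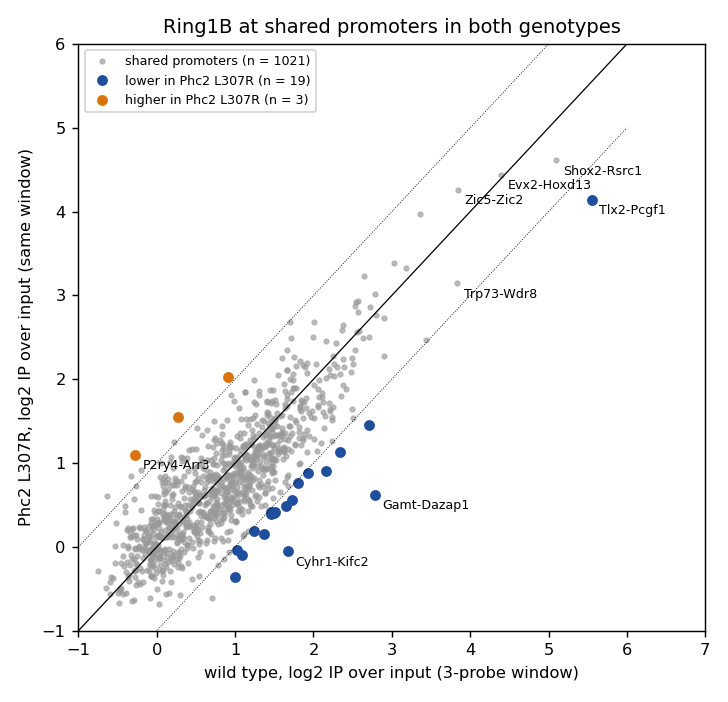
Level of the same 3-probe window (log2 IP over input) in wild type and Phc2 L307R for the 1021 shared promoters with a window; the solid line marks equal levels and the dotted lines a difference of 1. The 19 promoters that fell (blue) include Gamt-Dazap1 and Tlx2-Pcgf1, and the 3 that rose (orange) include P2ry4-Arr3.

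The largest fall was at Gamt-Dazap1. Its window (chr10:79664378-79664768 on the arrays, 382 bp from Gamt) had 2.94, 1.70 and 3.73 in wild type, against 0.48, 0.22 and 1.18 on the same probes in Phc2 L307R. The difference was -2.16 ± 0.59 (SD over 3 probes), and no Phc2 L307R probe reached the lowest wild-type one. Cyhr1-Kifc2, with a kinesin gene, fell by 1.73 ± 0.03, from 1.68 to -0.05, on the only 3 probes it has. Tlx2-Pcgf1 fell by 1.42 ± 0.92. 1700001O22Rik-2610205E22Rik (the latter now Ntmt1, a protein methyltransferase) fell from 1.00 to -0.36. Lrrc28-Ttc23 fell from 2.16 to 0.90, and Spred3-Ggn, a Ras pathway inhibitor beside a male germ cell gene, from 2.70 to 1.45.

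Most of the 19 falls were bound in wild type alone, which is how they entered the count. The exceptions were Tlx2-Pcgf1 (4.14 in Phc2 L307R), Spred3-Ggn (1.45) and Nsun6-Arl5b (1.13). Of the 19 falls, 7 have partners in none of the 14 lists of partner functions described further on. Sh2b1-Tufm, with the mitochondrial elongation factor, fell from 1.37 to 0.15. Nsun6-Arl5b fell from 2.34 to 1.13, Ubxd1-Hdgfrp2 from 1.09 to -0.09 and Zer1-Tbc1d13 from 1.73 to 0.56. Pcna-Cds2, with the sliding clamp of DNA replication, fell from 1.93 to 0.88, by 1.05 ± 0.13. Wrn-Purg, with the helicase of Werner syndrome, fell from 1.03 to -0.03. Nek8-Tlcd1 (1.81 to 0.77) and I830134H01Rik-Cep55 (1.65 to 0.49) carry genes of mitosis and cilia, and Clcn2-Polr2h (1.46 to 0.42) a subunit of the RNA polymerases. The remaining falls were Ccdc95-Hirip3, Dusp15-Ttll9, Aasdhppt-Kbtbd3 and 2810055F11Rik-1200003C05Rik, which fell by 1.05 to 1.10. In the value tables, 18 of the 19 were below 0 in the same windows and 16 in the windows that are highest there, and 4 met the size rule (Gamt-Dazap1, Cyhr1-Kifc2, Tlx2-Pcgf1 and Dusp15-Ttll9). Those tables share the Phc2 L307R arrays with the scanner files and are no independent repeat. There, 57.5% of all shared windows and 56.1% of the windows of all promoters were below 0.

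The 3 promoters that rose were bound in Phc2 L307R alone, and entered the count through that genotype, as most falls did through wild type. P2ry4-Arr3 had -0.90, -0.17 and 0.26 on its wild-type probes, against 1.04, 0.94 and 1.32 in Phc2 L307R. The difference was 1.37 ± 0.49. Its sign was turned when probes not well above background were left out (-0.24), and when the window was chosen in wild type alone (-0.037). Olfr117-Olfr118, a pair of olfactory receptor genes, rose from 0.27 to 1.55, with a single probe at 2.95 in Phc2 L307R. Mmachc-0610037D15Rik rose from 0.90 to 2.03. All 3 were above 0 in the value tables, which share the Phc2 L307R arrays, and P2ry4-Arr3 met the size rule there.

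Rpl9-Lias had a difference of 1.02 without meeting the rule, since 1 of its 3 probes was lower in Phc2 L307R, and its window rested on a single probe of 2.97. Tmem24-Dpagt1, with an enzyme of protein glycosylation, was at 1.70 and 2.69. Ap3m2-1700041G16Rik had all 3 probes higher in Phc2 L307R (1.71 ± 0.06 against 2.49 ± 0.22). Ankmy1-Dusp28 did too (0.95 and 1.82), but was lower in the value tables (-0.54). The lowest shared promoters in wild type were Syap1-Ctps2 (-0.75), Plec1-Grina (-0.64) and Lrrc19-Ift74 (-0.63).

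By partner function, the share bound in wild type ran from 33.3% to 68.2% over 14 lists, beside 41.8% of shared promoters (median 0.83) and 45.5% of all promoters. The lists overlap, since each pair counts under either gene, and 551 of the 1485 members are in none. Of these, 413 had a window and 138 were bound in wild type (33.4%, median 0.67), a lower share than in most lists. Among the 40 with a window in which a partner belongs to the transcription machinery or chromatin, 27 were bound (67.5%), with a median of 1.12; Tlx2-Pcgf1 is one of them. Splicing and RNA processing had 20 of 31 bound (median 1.15), cell cycle and mitosis 16 of 26 (1.28), and zinc finger proteins of the Zfp series 21 of 34 (1.08). Proteasome, ubiquitin and chaperones, with 84 windows, had 45 bound (1.16). Cytosolic ribosome and translation had 19 of 38 (0.92), mitochondrial ribosome and respiration 23 of 47 (0.96), membrane traffic and cytoskeleton 24 of 48 (0.99), and DNA repair and replication 11 of 25 (0.89). Amino acid, nucleotide and one-carbon enzymes had 11 of 20 (1.12), collagens and matrix genes 5 of 10 (1.01), and signalling ligands and receptors 3 of 9 (0.65). Pairs with an uncharacterised transcript had 119 of 288 (0.82).

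Between genotypes, the lists are given over all their windows, bound or not, because a promoter bound in 1 genotype alone counts as bound through the genotype where it is high. Beside the median difference of -0.09 over all 1021, splicing and RNA processing had -0.20, with 23 of 31 below 0 (shared promoters, 58.3%; all promoters, 54.5%); 1110008J03Rik-Ddx54 (2.49 and 1.65), with an RNA helicase, was the lowest of its bound members. Transcription machinery and chromatin had -0.19, with 31 of 40 below 0, and its 2 falls were Tlx2-Pcgf1 and Clcn2-Polr2h. Membrane traffic and cytoskeleton had -0.19 (30 of 48 below 0), cell cycle and mitosis -0.15 (15 of 26), and proteasome, ubiquitin and chaperones -0.12 (53 of 84). Zinc finger pairs had -0.11, with 26 of 34 below 0 and none past the size rule; Zfp113-Cops6 (1.49 and 0.58) and Zfp566-Zfp260 (1.16 and 0.43) were the lowest bound ones. Pairs with an uncharacterised transcript had -0.10 (178 of 288). Enzymes of amino acid, nucleotide and one-carbon pathways had -0.05 (12 of 20), where Gamt-Dazap1 fell and Mphosph10-Mcee was at 1.67 and 0.73.

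The sizes of these medians depended on the promoters and the setting. Over bound members alone, transcription machinery and chromatin had -0.32 and ran from -0.56 to -0.096 (value tables) over 15 other settings. Cell cycle and mitosis had -0.17 and ran from -0.61 (design 2) to -0.088 (design 1). Zinc finger pairs had -0.26 and ran from -0.39 to -0.088 (bound cut-off of 1.5). Splicing and RNA processing ran from -0.46 to -0.12, and the enzymes from -0.61 to -0.12.

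Cytosolic ribosome and translation had a median difference of 0.04 over all windows, with 17 of 38 below 0. Mitochondrial ribosome and respiration had -0.02 (26 of 47), DNA repair and replication -0.06 (13 of 25) and signalling ligands and receptors -0.05 (5 of 9). Collagens and matrix genes had -0.17 over 10 windows and 0.19 over their 5 bound members. Over bound members, the medians of these 5 lists took both signs over the other settings. Iqcg-Rpl35a, with a ribosomal protein gene, was at 1.30 and 1.86, and Atp6v1d-Eif2s1, with an initiation factor, at 2.21 and 1.62. Col4a6-Col4a5, a pair of basement membrane collagens, was at 1.71 and 2.00, and Mtx1-Thbs3 at 1.47 and 0.71. Fzd3-Fbxo16, with a Wnt receptor, was at 2.10 and 1.24.

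Developmental transcription factors had a median difference of -0.08 over 22 windows, with 11 below 0, and 1 fell. Over their 17 bound members it was 0.00. Their direction was not settled: over bound members the median was 0.05 after loess, -0.33 with normexp and -0.20 when the arrays were scaled alike. The value tables gave -1.24, and there 8 met the size rule downward.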

How the data were processed

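Spot intensity values and log10 ratios of Cy5 over Cy3 were taken from the 4 scanner files deposited by the authors, made with Agilent Feature Extraction 10.7.3.1, per the file headers. Value tables, also deposited and also on the log10 scale, lie within 0.01 (log2, after centring) of the scanner ratios for 99.8% of probes in Phc2 L307R on either design, and differ from them in wild type. Where the wild-type values came from, and the genome build of the arrays, are not given in the sources used here. The tables share the Phc2 L307R arrays with the scanner files and are no independent repeat. Per the labels, DNA was amplified with T7 RNA polymerase, and no dye swap was made.

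Control and outlier spots were left out, and the log2 ratio of every probe was taken relative to its array's median. With 1 array per genotype and promoter, fixed rules of size were used in place of a test. Steps were tested on simulated data. Precision is limited by the number of arrays. The members, lists and rules were chosen with earlier results of these data known. Named promoters are the 10 highest and 3 lowest in wild type, the 10 largest falls and 10 largest rises among bound ones, and up to 2 highest and 2 lowest differences of each of 14 lists; others were named after their values were seen, as were the sequences shown. Of 2970 partner names, 2898 matched a symbol or synonym of the RefSeq table. Its coordinates were used for order, orientation, start-to-start distances and sequences, and not to place the probes. Alternatives were normexp (offset 50), loess within arrays, arrays scaled to the same spread, value tables, leaving out dim probes, other windows and cut-offs, single designs, matched names and distinct windows; comparisons without the partners' own promoters, weighted to the same number of windows, of head-to-head pairs alone, of every window whether bound or not, of value tables in unchanged windows, and of ends near a RefSeq start were added after seeing the data. Some promoters enter the counts but are not reported singly. Calculations used Python 3.11.15, numpy 2.4.6, pandas 2.3.3, scipy 1.17.1, matplotlib 3.10.9 and R 4.3.3 with limma 3.58.1.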

Additional observations from a re-analysis of the deposited data

How the results depend on the processing

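The lower median of shared promoters against those with no hyphen (-0.07 in wild type) turned to 0.071 with the mean over all probes and to 0.30 with equal numbers of windows; it was -0.20 with probes well above background only, -0.19 with windows of 5 probes and -0.010 on design 2 alone. The count bound in wild type (427) was 158 with normexp, 235 with probes well above background, 248 with windows of 5 probes, 149 with the mean over all probes, 187 at a cut-off of 1.5, and 201 and 226 on designs 1 and 2 alone. The median difference (-0.17) stayed below 0 under the settings run and was -0.33 with normexp, -0.32 with the same spread, -0.32 with probes well above background, -0.28 with the window highest in wild type, -0.11 with that highest in Phc2 L307R and -0.093 over every window, bound or not. The 19 falls became 7 with normexp, 3 with windows of 5 probes, 11 with the window highest in Phc2 L307R, 5 with the mean over all probes, 11 at the cut-off of 1.5, 68 at a size rule of 1.5-fold, and 12 and 7 on designs 1 and 2. The 3 rises became 0 with normexp, 0 with probes well above background, 1 with windows of 5 probes, 5 with the window highest in Phc2 L307R, 24 at the 1.5-fold rule and 1 on design 1. Fewer probes or promoters enter with the dim-probe filter, the windows of 5 and the single designs; for the other settings the cause was not tested. Of the called promoters, Zer1-Tbc1d13 (0.063) turned sign in the value tables in the same window. 1700001O22Rik-2610205E22Rik (0.13) and Sh2b1-Tufm (0.041) did so there only with another window chosen, and had -0.40 and -0.56 in the same one. Others that turned were Nsun6-Arl5b (0.55) with the highest Phc2 L307R window, and P2ry4-Arr3 with probes well above background (-0.24) and the window highest in wild type (-0.037). Of the 223 list medians recomputed, 206 stayed within their interval, and of 977 values of named promoters 820 moved by less than the SD over their probes. No paired analysis was possible because each title number stands for a different array design with other probes, so each promoter has 1 array per genotype. Of the shared probes, 29.0% were not well above background on at least 1 channel or array, and on the wild-type array of design 1 0.982% had a ratio of exactly 0.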

Other observations

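The genes that face each other across a shared promoter also have probes that carry only their own name, on the side of the gene itself. These 2878 promoters had a median of 16 probes and a median window level of 0.86 (wild type) and 0.69 (Phc2 L307R), beside 0.83 and 0.69 for the shared intervals. In wild type 41.9% were bound (all promoters, 45.5%) and in Phc2 L307R 31.6% (all promoters, 39.3%), and 11 reached 3 in wild type (0.38%; all promoters, 1.58%). Evx2 (4.88), Zic1 (3.76), Ikzf3 (3.75), Shox2 (3.56) and Tlx2 (3.50) were among those at 3 or more, each next to a shared interval at 3 or more, and Zic2, at 5.00, stood above its interval with Zic5 (3.84). Lmx1b, at 3.99, lay beside an interval of 1.51.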
